A study of Homo sapiens with 6 samples.

Results

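The SR proteins, the hnRNPs, and the kinases that phosphorylate SR proteins were compared between HK-2 cells with and without TEPP-46. Genes were taken by symbol from the protein-coding genes of the deposited table. They comprised the SRSF and HNRNP genes, CLK1 to CLK4, SRPK1 to SRPK3, TRA2A and TRA2B, PTBP2 and PTBP3, and RBM5, RBM25, and RBM39. Of 48 genes that matched these names, 5 were left out, namely *SRSF3*, *HNRNPA1*, *HNRNPA2B1*, and copies of *HNRNPA1*, so that 43 of the 29483 genes in the table were analyzed. HK-2, an established human cell line of the proximal tubular epithelium of the kidney, was immortalized with papillomavirus genes. All 6 samples were kept in 25 mM high glucose (HG) medium for 7 days. An activator of the glycolytic enzyme PKM2, TEPP-46, was then added at 10 μM for 1 day to the 3 replicates of the case group but not to the 3 of the control group. The replicates are described as independent and as separately treated, without a statement that they came from separate cultures. The *P*-values therefore measure the spread between these samples, which may be technical. Whether the control medium held the solvent of TEPP-46 is not given in the sources used here.

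Splicing removes introns from pre-mRNA, and the choice of splice sites depends on proteins that bind the RNA beside them. SR proteins carry domains rich in arginine and serine. They bind exons and as a rule help U1 and U2 snRNP to recognize the neighbouring splice sites, while hnRNPs bind the same transcripts and often oppose that choice. SRPK kinases phosphorylate SR proteins in the cytoplasm, which allows their import into the nucleus, and CLK kinases phosphorylate them further in the nucleus, which releases them from nuclear speckles. Many genes of these families keep their own protein level in check by splicing part of their transcripts into forms with an early stop codon or a retained intron. The FPKM of a gene (its reads scaled to the length of the gene and the reads of the library) sums all of its transcripts, so productive and unproductive forms could not be told apart here.

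The FPKM values rested on 18634891, 17924033, and 17378710 reads in control replicates 1, 2, and 3, and on 16711934, 16047243, and 15363254 reads in case replicates 1, 2, and 3, as derived from the steps between the values. The values are given below as scaled FPKM, that is FPKM divided by a factor per library (0.939 to 1.03) that sets the median ratio of genes between libraries to 1, and are listed in the order of replicates 1, 2, and 3. Since FPKM is a share of the library, fewer cells expressing a gene and less RNA per cell cannot be told apart. The epithelial keratins *KRT8*, *KRT18*, and *KRT19* were abundant, with mean scaled FPKM over the 6 libraries of 307, 190.2, and 346, and *EPCAM* was at 13.6. The defining genes of the proximal tubule were near 0: of the 8 in the table, *MME* was the highest at 0.353 and *LRP2*, which encodes megalin, was at 0.00111. The cells were thus epithelial by their RNA, and proximal tubular by their label alone. Markers of fibroblasts, endothelial cells, and leukocytes were at most 0.529, the level of *CD14*. *KRT8*, *KRT18*, *KRT19*, and *EPCAM* were not DE genes, with log2 fold changes of -0.27, 0.020, 0.020, and 0.037. The epithelial cadherin *CDH1*, with 3.33 ± 0.0731 without and 2.1 ± 0.185 (SD, n = 3) with TEPP-46, and *CD14*, with 0.785 ± 0.157 without and 0.272 ± 0.0381 (SD, n = 3) with TEPP-46, were downregulated (adjusted *P*-values 0.0156 and 0.0384 by limma), and their part in the results below was not tested.

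Of the 43 genes, 41 had a mean FPKM of at least 0.5 and were tested. By scaled FPKM, which is per length of gene, *HNRNPC*, *HNRNPK*, and *HNRNPF* were the most abundant, with means over the 6 libraries of 207, 134, and 132, and *CLK4*, *PTBP2*, and *SRPK3* the least, with 0.968, 0.484, and 0.0490. By limma (adjusted *P*-value ≤ 0.05 over all tested genes), 3 were DE genes. *RBM39* was upregulated, while *HNRNPA3* and *PTBP3* were downregulated. This was 7.32% of the 41, against 13.2% of all 13599 genes tested. In the upward direction it was 2.44% against a background of 7.34%, and in the downward direction 4.88% against 5.84%. At an unadjusted *P*-value under 0.05 there were 12 of the 41 (29.3%), with 3 higher and 9 lower in the case group, against 33.1% of all genes tested, 16.8% higher and 16.2% lower. The median log2 fold change (case minus control) was -0.0069 over the 41 and -0.0017 over all genes tested, and 25 of the 41 differed by less than 0.2 on the log2 scale. The 95% interval of the log2 fold change lay between -0.5 and 0.5 in 29 of them.

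The size of these counts depended on the scaling between libraries. Against 1 upregulated and 2 downregulated genes here, FPKM as deposited gave 0 and 6 (14.6% of the 41, against 13.1% of all genes), quantile normalization 0 and 6 (14.6% against 13%), and TPM 0 and 11 (26.8% against 20.4%). The downward background was 8.27%, 6.58%, and 17.6% in that order, so whether the 41 genes held fewer or more DE genes than the background also turned with the scaling. TPM moved the median of all genes to -0.194 and that of the 41 to -0.207, whereas quantile normalization left the median of all genes at -0.0037 and moved that of the 41 to -0.119. *HNRNPA3* and *PTBP3* were downregulated under each of these scalings and *RBM39* was upregulated under none of them, although its log2 fold change stayed above 0. Leaving out any 1 control replicate or case replicate 3 left few calls in the whole table, from 0.529% to 1.29% of all genes, and 0 among the 41, with 6 to 10 at an unadjusted *P*-value under 0.05 by limma. Without case replicate 1, and likewise without case replicate 2, 2 were upregulated and 5 downregulated (17.1% of the 41), against 16.7% and 25.4% of all genes.

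**Figure D1:**
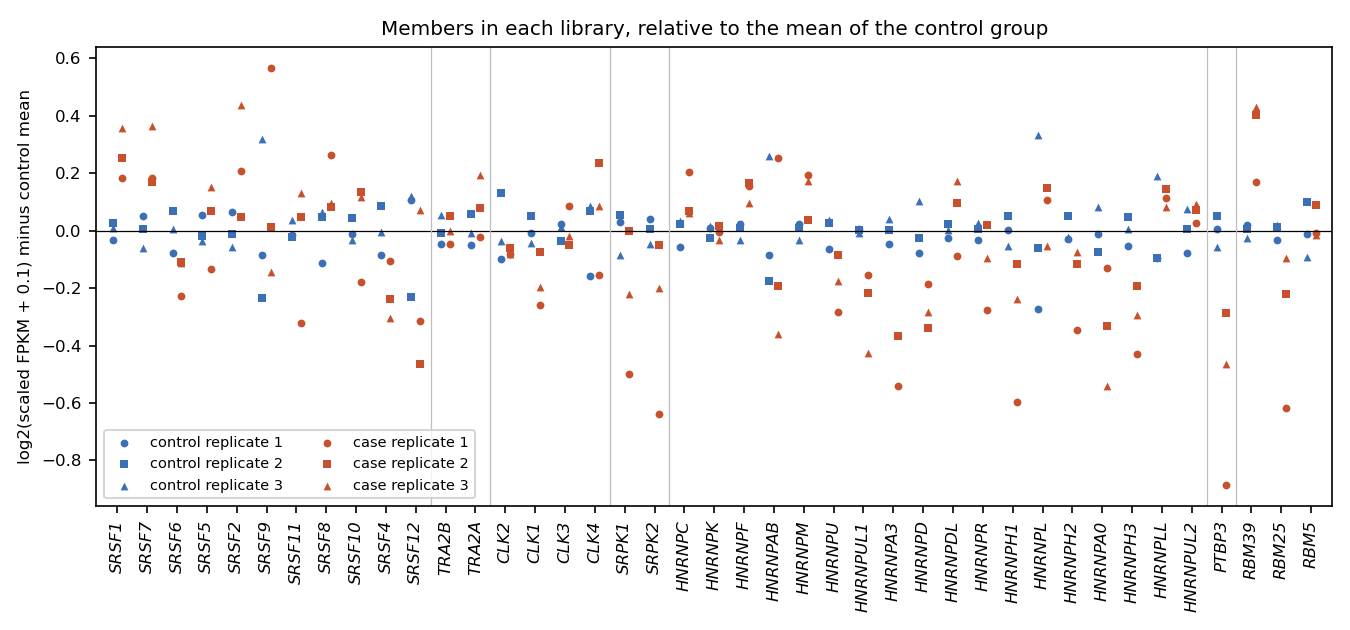
Log2 ratio (vertical axis) of the scaled FPKM in each of the 6 libraries to the control mean for the 41 tested genes (horizontal axis), ordered by family. Each point is a library, color gives the group, and marker shape gives the replicate. The 3 DE genes are *RBM39*, *HNRNPA3*, and *PTBP3*, and case replicate 1 holds the lowest case value in 22 of the 41 genes.

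Among the SR proteins, 11 were tested and 0 were DE genes by limma, with 2 higher and 1 lower at an unadjusted *P*-value under 0.05, while voom on whole reads called 1, *SRSF1*. Over all genes, voom called 9.54% up and 11.1% down. *SRSF1*, the prototype of the family, which acts in constitutive and alternative splicing, was its most abundant member and also the one with the largest difference. It had scaled FPKM of 50.1, 52.2, and 51.6 without TEPP-46 and 58.2, 61.1, and 65.7 with it. All case replicates lay above all control replicates, with a log2 fold change of 0.26 ± 0.076 (SE) and an adjusted *P*-value of 0.0554 by limma, just outside the threshold. The log2 fold change of *SRSF1* was 0.19 with unscaled FPKM, 0.12 with quantile normalization, and 0.065 with TPM (adjusted *P*-values 0.140, 0.332, and 0.592 by limma). *SRSF7*, which also takes part in export of mRNA, had scaled FPKM of 41.8, 40.6, and 38.8 without TEPP-46 and 45.9, 45.4, and 52.0 with it, without overlap and with an adjusted *P*-value of 0.0892 by limma. *SRSF2*, which stays in the nucleus and is a core component of speckles, had 28.3, 26.8, and 26.0 without TEPP-46 and 31.3, 28.0, and 36.6 with it, so that case replicate 2 lay within the control range (adjusted *P*-value 0.173 by limma). Lower values were seen for *SRSF12*, the least abundant member with 54 to 99 reads per library, at 1.14, 0.883, and 1.15 without TEPP-46 and 0.827, 0.736, and 1.11 with it, and for *SRSF4*, at 8.12, 9.16, and 8.60 without TEPP-46 and 8.01, 7.30, and 6.96 with it, with adjusted *P*-values of 0.487 and 0.15 by limma. The remaining SR proteins, *SRSF5*, *SRSF6*, *SRSF8*, *SRSF9*, *SRSF10*, and *SRSF11*, had log2 fold changes from -0.15 (*SRSF6*) to 0.15 (*SRSF8*). The summed scaled FPKM of the 11 SR genes was 248.9, 250.6, and 254.5 without TEPP-46 and 268.8, 266.1, and 286.1 with it. With 0.029, their median log2 fold change was close to that of all genes, and it was -0.17 with TPM and -0.0021 with quantile normalization.

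The TRA2 proteins are relatives of the SR proteins that bind purine-rich exonic sequences. *TRA2B* hardly differed between the groups, at 18.5, 19.0, and 19.9 without TEPP-46 and 18.5, 19.8, and 19.1 with it. Its log2 fold change was 0.0020, with a 95% interval of -0.17 to 0.17. *TRA2A* had 15.1, 16.2, and 15.5 without TEPP-46 and 15.4, 16.5, and 17.9 with it, with a log2 fold change of 0.085 ± 0.086 (SE) and an adjusted *P*-value of 0.526 by limma. The groups overlapped in both genes.

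No CLK kinase was a DE gene: 0 of 4 passed by limma, 0 had an unadjusted *P*-value under 0.05, and voom also called 0. With 13.2%, 33.1%, and, by voom, 9.54% up and 11.1% down of all genes, a count of 0 in so few genes is near the background. *CLK1*, a nuclear kinase that acts on SR proteins, had scaled FPKM of 5.67, 5.92, and 5.55 without TEPP-46 and 4.76, 5.42, and 4.98 with it. All its case replicates lay below the control replicates, with a log2 fold change of -0.18 ± 0.091 (SE), an adjusted *P*-value of 0.213 by limma, and a 95% interval of -0.38 to 0.033. *CLK2* was the most abundant of the 4, at 13.8, 16.2, and 14.4 without TEPP-46 and 13.9, 14.1, and 13.9 with it, and its log2 fold change was -0.075 ± 0.086 (SE) with an adjusted *P*-value of 0.581. *CLK3* had 3.07, 2.94, and 3.04 without TEPP-46 and 3.21, 2.91, and 2.97 with it and hardly differed, with a log2 fold change of 0.0065 ± 0.10 (SE) (adjusted *P*-value 0.970 by limma). *CLK4* was scarce, at 0.835, 0.993, and 1.01 without TEPP-46 and 0.837, 1.13, and 1.01 with it, from 104 to 145 reads per library. Its log2 fold change was 0.057 ± 0.19 (SE) (adjusted *P*-value 0.865 by limma), and the 95% interval of -0.39 to 0.50 was the widest of the CLK kinases. The groups overlapped in *CLK2*, *CLK3*, and *CLK4*.

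Of the SRPK kinases, *SRPK1*, the widely expressed form, had scaled FPKM of 20.1, 20.5, and 18.6 without TEPP-46 and 13.9, 19.7, and 16.9 with it, and *SRPK2* had 9.20, 8.99, and 8.65 without TEPP-46 and 5.71, 8.63, and 7.77 with it. In both genes case replicate 1 was the lowest library by far, and case replicate 2 was the closest to the control group. Neither was a DE gene by limma, with a log2 fold change of -0.24 ± 0.13 (SE) and an adjusted *P*-value of 0.224 for *SRPK1*, and of -0.30 ± 0.15 (SE) and 0.197 for *SRPK2*. Here the intervals were wide (-0.53 to 0.052 and -0.63 to 0.041), and both include the difference measured in *HNRNPA3*. Without case replicate 1 the values were -0.11 for *SRPK1* (adjusted *P*-value 0.422 by limma) and -0.12 for *SRPK2* (0.306). Without case replicate 2 they were -0.36 (0.0484, a DE gene) and -0.42 (0.0665). *SRPK3*, the muscle form, held 1 to 10 reads per library, with scaled FPKM of 0.0111, 0.114, and 0.0471 without TEPP-46 and 0.0403, 0.0392, and 0.0421 with it, and was not tested. The SRPK kinases numbered 0 DE genes of 2 tested by limma, 0 at an unadjusted *P*-value under 0.05, and 0 by voom, which with 2 genes is likewise near the background of 13.2% and 33.1% by limma.

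**Figure D2:**
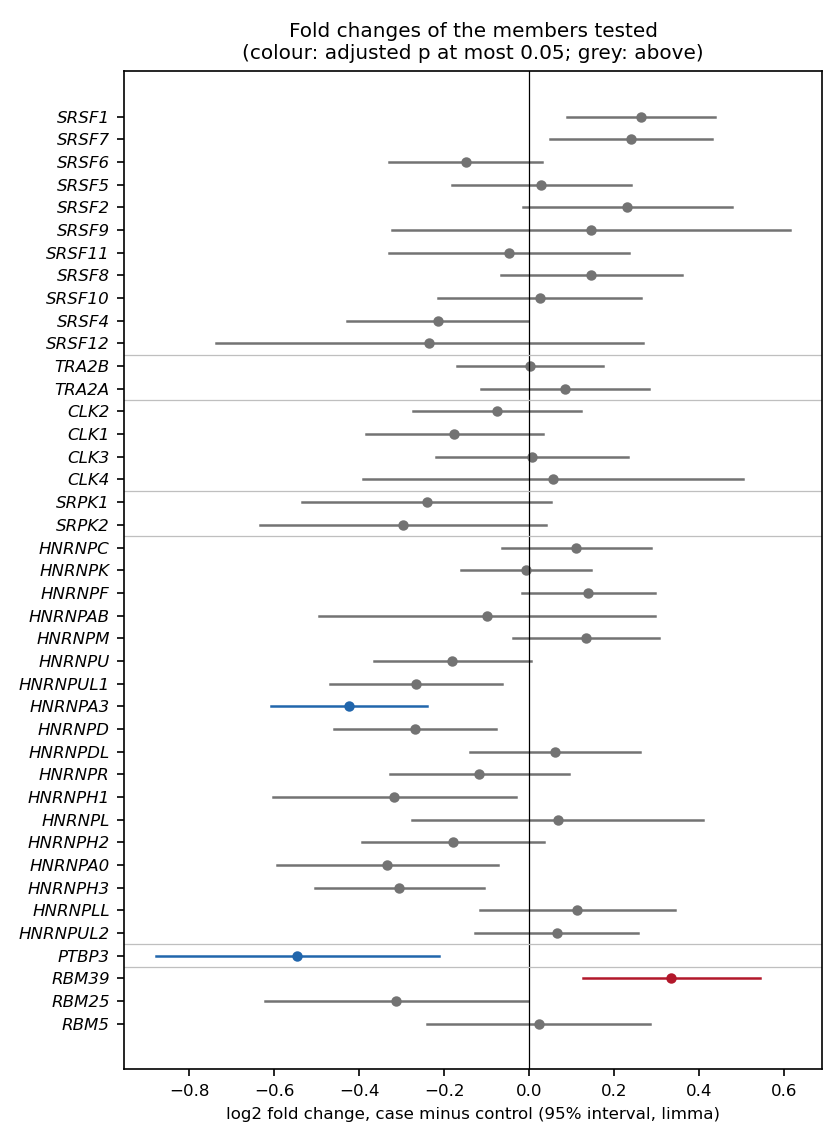
Log2 fold change (case minus control) of the 41 tested genes by family, with its 95% interval by limma. Filled color marks the 3 DE genes, and the intervals of the CLK, SRPK, and TRA2 genes cross 0.

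The hnRNPs were the most abundant of the families, and 11 of the 18 tested had a log2 fold change below 0. By limma 0 were upregulated and 1 was downregulated, with 0 higher and 6 lower at an unadjusted *P*-value under 0.05 (background 16.8% and 16.2%), and voom called 0 and 4 (background 9.54% and 11.1%). *HNRNPA3*, a relative of hnRNP A1 and A2 that binds RNA through tandem RRM domains, lies on chromosome 2 from 177212694 to 177223959 (GRCh38). It had scaled FPKM of 50.4, 52.2, and 53.6 without TEPP-46 and 35.8, 40.3, and 40.5 with it. All case values lay below all control values, with a log2 fold change of -0.42 ± 0.080 (SE) and an adjusted *P*-value of 0.0197 by limma. Between 3384 and 5805 reads per library lay behind these values. The call was lost without any 1 control replicate (0.081 to 0.0988) and without case replicate 3 (0.0604). In these fits the log2 fold change of *HNRNPA3* was -0.45 to -0.40. *HNRNPA3* overlaps *NFE2L2*, which is transcribed from the opposite strand and was upregulated (0.61 ± 0.11 (SE), adjusted *P*-value 0.0195), and the strandedness of the counting is not given in the sources used here. Among its processed pseudogenes, *HNRNPA3P6* had 2.82, 2.00, and 2.39 without TEPP-46 and 1.01, 1.97, and 0.992 with it and was also lower in the case group, without being a DE gene (adjusted *P*-value 0.0646 by limma), and reads may be split between such copies.

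*HNRNPC*, which binds stretches of uridine in nascent transcripts, was the most abundant of all 43 genes, with scaled FPKM of 191, 202, and 203 without TEPP-46 and 229, 208, and 207 with it. Its log2 fold change was 0.11 ± 0.076 (SE), with an adjusted *P*-value of 0.341 by limma, and its groups did not overlap. The processed pseudogene *HNRNPCP2* was listed at 28.8 and shares sequence with it, so the division of reads between them is uncertain. *HNRNPA0*, known as a regulator of AU-rich transcripts, had the largest difference among the hnRNPs that were not DE genes, at 22.8, 21.8, and 24.3 without TEPP-46 and 20.9, 18.2, and 15.7 with it, with a log2 fold change of -0.33 ± 0.11 (SE) and an adjusted *P*-value of 0.0850 by limma. Case replicate 1 was here the highest of its group and case replicate 3 the lowest. *HNRNPH3* and *HNRNPH1* belong to the subgroup that binds runs of guanine. *HNRNPH3* had 20.6, 22.1, and 21.5 without TEPP-46 and 15.9, 18.7, and 17.4 with it, with a log2 fold change of -0.30 ± 0.086 (SE) and an adjusted *P*-value of 0.0539 by limma, and *HNRNPH1* had 31.0, 32.0, and 29.8 without TEPP-46 and 20.4, 28.6, and 26.2 with it, with -0.32 ± 0.12 (SE) and 0.121. Neither passed the threshold, although in both all case replicates lay below the control replicates. For *HNRNPH1*, leaving out case replicate 1 gave -0.17, and leaving out case replicate 2 gave -0.42 and a DE gene (adjusted *P*-value 0.0416 by limma). Of the same subgroup, *HNRNPF* had 128, 127, and 123 without TEPP-46 and 140.4, 142, and 135 with it and thus the opposite sign, with a log2 fold change of 0.14 ± 0.068 (SE) and an adjusted *P*-value of 0.192. The sign of *HNRNPF* and of *HNRNPC* turned with TPM and with quantile normalization.

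*HNRNPD*, also called AUF1, which takes part in the decay of AU-rich mRNA, had scaled FPKM of 45.1, 46.9, and 51.2 without TEPP-46 and 42.0, 37.6, and 39.2 with it, and *HNRNPUL1*, which acts in the DNA damage response, had 65.0, 64.8, and 64.3 without TEPP-46 and 58.1, 55.7, and 48.1 with it. In both genes the case values lay below all control values, with adjusted *P*-values of 0.0664 and 0.0807 by limma. *HNRNPU*, a scaffold protein of the nucleus that binds chromatin and RNA, had 61.3, 65.2, and 65.8 without TEPP-46 and 52.7, 60.5, and 56.7 with it, with a log2 fold change of -0.18 ± 0.080 (SE) and an adjusted *P*-value of 0.159. The remaining 9 hnRNPs, namely *HNRNPAB*, *HNRNPDL*, *HNRNPH2*, *HNRNPK*, *HNRNPL*, *HNRNPLL*, *HNRNPM*, *HNRNPR*, and *HNRNPUL2*, ranged from -0.18 (*HNRNPH2*) to 0.13 (*HNRNPM*) in log2 fold change, and none of these was a DE gene. As a group the 18 hnRNPs had a median log2 fold change of -0.11, which was -0.31 with TPM and -0.23 with quantile normalization. Their summed scaled FPKM, 1050.6, 1066.2, and 1114.0 without TEPP-46 and 1083.2, 1051.5, and 1016.4 with it, overlapped between the groups.

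*PTBP3* is a paralog of the polypyrimidine tract binding protein PTBP1, which represses exons. It lies on chromosome 9 from 112217716 to 112333664 and had scaled FPKM of 25.4, 26.2, and 24.4 without TEPP-46 and 13.7, 20.8, and 18.3 with it. This was the largest difference of the 41 genes, with a log2 fold change of -0.55 ± 0.14 (SE) and an adjusted *P*-value of 0.0454 by limma, and the groups did not overlap. The 3 case replicates were far apart, and case replicate 1 lay lowest. Without that replicate the log2 fold change was -0.37 and the adjusted *P*-value 0.0271 by limma. The call was lost without any 1 control replicate (0.121 to 0.15), without case replicate 3 (0.118), with no filter (0.117), and with no intensity trend (0.0853). In these fits the log2 fold change of *PTBP3* was -0.58 to -0.52. *PTBP2*, the neuronal paralog, was scarce, with 0.596, 0.512, and 0.488 without TEPP-46 and 0.315, 0.498, and 0.494 with it on 64 to 147 reads per library, and was not tested.

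*RBM39*, *RBM25*, and *RBM5* encode RNA-binding proteins that associate with the spliceosome. *RBM39*, also called CAPERα, is a relative of U2AF2 and a coactivator of nuclear receptors, and lies on chromosome 20 from 35701347 to 35742312. It had scaled FPKM of 20.5, 20.3, and 19.9 without TEPP-46 and 22.8, 26.8, and 27.3 with it, and all case replicates lay above all control replicates. The log2 fold change was 0.34 ± 0.090 (SE) and the adjusted *P*-value 0.0476 by limma. This call was lost in 11 of 18 alternatives, with adjusted *P*-values of 0.0587 without case replicate 2, 0.137 without case replicate 3, 0.151 to 0.16 without any 1 control replicate, 0.0638 with the replicate block, 0.0904 with no filter, 0.0858 with no intensity trend, and 0.107 to 0.386 with the other scalings. In the fits of these that left out a replicate, its log2 fold change was 0.29 to 0.34. It was 0.34 with the replicate block, with no filter, and with no intensity trend. With unscaled FPKM it was 0.26, with quantile normalization 0.27, and with TPM 0.14. *RBM25*, which associates with U1 snRNP, had 9.44, 9.74, and 9.78 without TEPP-46 and 6.25, 8.27, and 9.02 with it. Its log2 fold change was -0.31 ± 0.13 (SE), with an adjusted *P*-value of 0.149, and case replicate 1 was again the lowest. Without that replicate it was -0.16. *RBM5*, which regulates the splicing of genes of apoptosis, had 2.21, 2.39, and 2.08 without TEPP-46 and 2.21, 2.37, and 2.20 with it and a log2 fold change of 0.023 ± 0.11 (SE) (adjusted *P*-value 0.907 by limma).

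**Figure D3:**
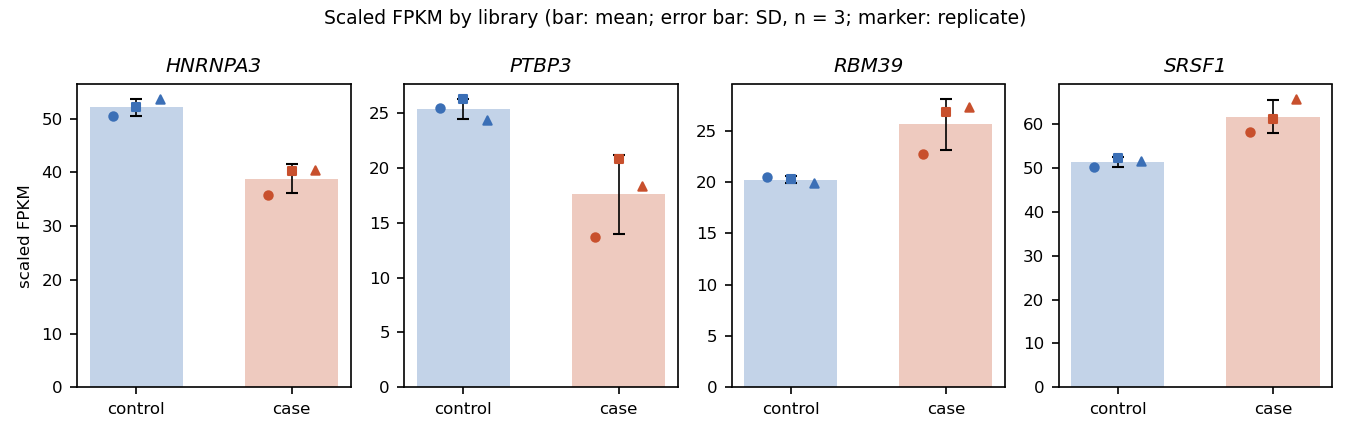
Scaled FPKM of *HNRNPA3*, *PTBP3*, *RBM39*, and *SRSF1* in the 3 control and 3 case replicates. Bars are group means, error bars are the SD (n = 3), and points are libraries, with marker shape giving the replicate. The groups do not overlap in any of the 4 genes.

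The libraries of the case group did not contribute evenly. Case replicate 1 had the lowest value of its group in 22 of the 41 genes, case replicate 2 in 7, and case replicate 3 in 12. Among the controls, replicate 1 was lowest in 20, replicate 2 in 7, and replicate 3 in 14, and replicate 3 was highest in 18. The median of the 41 genes, taken against the mean of the control group, was -0.10 in case replicate 1, 0.016 in case replicate 2, and -0.033 in case replicate 3 on the log2 scale, while that of all genes tested lay between -0.0093 and 0.0054 in every library. The exons of the 41 genes were low in GC, with a median of 41.0% against 48.1% in all tested genes with an annotated sequence. In case replicate 1, the deviation of a gene from its control mean, which includes the difference between the groups, correlated with its GC content. The value of r was 0.422 over the 41 genes and 0.283 over 13489 genes, which share the library and its base composition. The part of GC content in the results was not tested, but with a correction for it, which was chosen once the values were known, the 3 DE genes kept their calls and 5 further ones were called, namely *SRSF1* and *SRSF7* upward and *HNRNPH1*, *HNRNPH3*, and *HNRNPUL1* downward. These 8 were 19.5% of the 41, against 24.1% of all genes under the same correction. The genes called without case replicate 1 were *RBM39* and *SRSF1* upward and *HNRNPA0*, *HNRNPA3*, *HNRNPD*, *HNRNPUL1*, and *PTBP3* downward. Without case replicate 2 they were *SRSF1* and *SRSF2* upward and *HNRNPA3*, *HNRNPH1*, *HNRNPH3*, *PTBP3*, and *SRPK1* downward.

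Complete separation of the groups was more frequent than DE genes. In 21 of the 41 genes (51.2%) all case values lay on 1 side of all control values, against 39.9% of all genes tested. There were 7 genes with the case group above (17.1%, background 19.5%) and 14 with the case group below (34.1%, background 20.4%). The 41 genes were also measured with little scatter, as the median SD on the log2 scale was 0.053 among control and 0.11 among case replicates, compared with 0.089 and 0.19 over all genes. Their median FPKM was 22.8 against 4.78, and 37 of the 43 held at least 500 reads in every library.

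Transcripts with an early stop codon are common in this set by annotation. In GENCODE, 33 of the 41 genes (80.5%) had at least 1 transcript annotated as a target of nonsense-mediated decay, against 47.8% of the 11265 protein-coding genes tested, and 32 (78.0%) had a transcript with a retained intron, against 60.9%. The summed exon length had a median of 6492 bp, against 4722 bp in the 13489 tested genes with an annotation, noncoding genes included. Since FPKM was given per gene, no change between such transcripts was measurable.

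The partners of these proteins in the spliceosome, from lists written with earlier results of these data known, held DE genes in both directions. The background for each list is 7.34% of all genes up and 5.84% down by limma, 16.8% and 16.2% at an unadjusted *P*-value under 0.05, and 9.54% and 11.1% by voom. In the early spliceosome (Sm core, U1, U2, and U2AF), 3 of 24 genes tested were upregulated and 0 downregulated by limma, with 8 higher and 3 lower at an unadjusted *P*-value under 0.05, and voom called 4 and 0. *SNRPD3*, *SNRPD1*, and *SNRPF* encode Sm proteins, which form the ring around spliceosomal snRNA. Mean scaled FPKM was 25.0 ± 0.568 without and 35.0 ± 3.04 (SD, n = 3) with TEPP-46 for *SNRPD3* (0.48 ± 0.085 (SE), adjusted *P*-value 0.0167), 26.7 ± 1.28 without and 38.0 ± 4.63 (SD, n = 3) with TEPP-46 for *SNRPD1* (0.50 ± 0.10 (SE), 0.0225), and 27.7 ± 0.282 without and 35.1 ± 1.93 (SD, n = 3) with TEPP-46 for *SNRPF* (0.34 ± 0.074 (SE), 0.0268), by limma. The median log2 fold change of this list was 0.14, and 0.059 with unscaled FPKM, but -0.064 with TPM and -0.031 with quantile normalization. Of the 20 genes of the tri-snRNP and catalytic spliceosome, 4 were upregulated and 3 downregulated by limma. At an unadjusted *P*-value under 0.05 there were 5 higher and 5 lower, and voom called 4 and 4. The median log2 fold change of these 20 genes was 0.0067, or -0.19 with TPM, -0.070 with unscaled FPKM, and -0.093 with quantile normalization. *BUD31*, a protein of the activated spliceosome, was at 17.2 ± 1.60 without and 30.5 ± 2.95 (SD, n = 3) with TEPP-46 (0.82 ± 0.10 (SE), adjusted *P*-value 0.00818 by limma), *PRPF3*, a protein of the U4/U6 snRNP, at 19.0 ± 0.263 without and 24.9 ± 1.43 (SD, n = 3) with TEPP-46 (0.39 ± 0.077 (SE), 0.0221), and the helicase *DHX38* at 22.6 ± 0.389 without and 16.2 ± 2.46 (SD, n = 3) with TEPP-46 (-0.49 ± 0.11 (SE), 0.0317).

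Among 20 SR-related proteins of nuclear speckles, 0 were upregulated and 3 downregulated by limma, with 1 higher and 3 lower at an unadjusted *P*-value under 0.05 and 0 and 3 called by voom. These were *SON*, which organizes speckles, with 17.1 ± 0.412 without and 10.1 ± 1.59 (SD, n = 3) with TEPP-46 (-0.77 ± 0.11 (SE), adjusted *P*-value 0.0127), *SRRM2*, the other scaffold of speckles, with 25.0 ± 0.419 without and 16.4 ± 2.41 (SD, n = 3) with TEPP-46 (-0.61 ± 0.11 (SE), 0.0171), and *SRRM1* with 8.77 ± 0.981 without and 6.44 ± 0.603 (SD, n = 3) with TEPP-46 (-0.44 ± 0.11 (SE), 0.0433). The list had a median log2 fold change of -0.12 and of -0.29 in case replicate 1 alone, relative to the control mean, and it was -0.32 with TPM, -0.20 with unscaled FPKM, and -0.11 with quantile normalization. Of 15 genes of nonsense-mediated decay and the exon junction complex, 1 was upregulated and 0 downregulated by limma, with 2 higher and 5 lower at an unadjusted *P*-value under 0.05 and 1 and 4 called by voom. *SMG9*, which regulates the kinase SMG1, was at 12.3 ± 0.566 without and 17.4 ± 1.80 (SD, n = 3) with TEPP-46 (0.49 ± 0.10 (SE), adjusted *P*-value 0.0213 by limma). The largest difference of this list was downward, in *SMG1*, with a log2 fold change of -0.86 ± 0.30 (SE). *SMG1* was not a DE gene (adjusted *P*-value 0.0917 by limma). Among 11 other kinases, phosphatase subunits, and import receptors of SR proteins and hnRNPs, 0 were upregulated and 1 downregulated by limma, with 1 each at an unadjusted *P*-value under 0.05 and 0 and 1 called by voom. It was *PPP1R10*, a nuclear regulator of phosphatase PP1, with 24.2 ± 0.952 without and 17.4 ± 1.75 (SD, n = 3) with TEPP-46 (-0.48 ± 0.093 (SE), adjusted *P*-value 0.0214). Without any 1 control replicate or case replicate 3, at most 1 gene of these 5 lists was called in either direction, whereas 13 and 12 were called without case replicate 1 and 15 and 12 without case replicate 2, against 8 upregulated and 7 downregulated with all libraries. Over all genes the share called was 0.529% to 1.29%, 16.7%, and 25.4% in these fits.

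**Figure D4:**
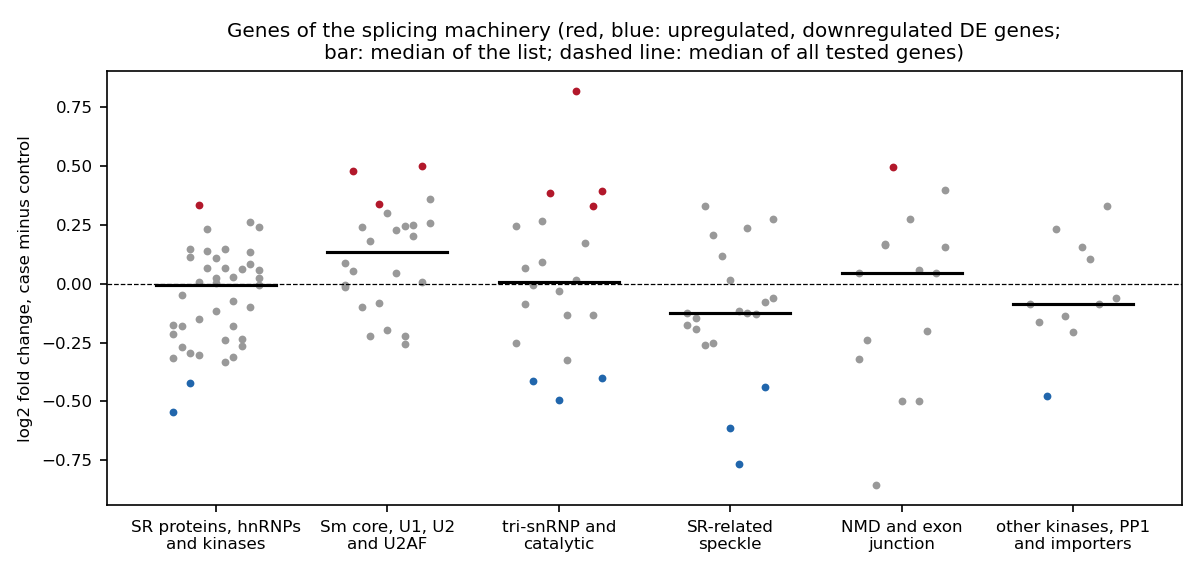
Log2 fold change (case minus control) of the tested genes in the SR, hnRNP, and kinase set and in 5 other splicing gene lists. Each point is a gene, filled color marks DE genes by limma, and the line marks the median of the list, which ranged from -0.12 (SR-related speckle proteins) to 0.14 (early spliceosome).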

How the data were processed

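Gene expression was measured by RNA sequencing (paired-end reads) in 6 libraries of HK-2 cells, 3 per group, grouped by the treatment in the labels. Per the submitters' processing notes and the study's methods, the authors filtered reads, aligned them with HISAT2 2.1.0 to GRCh38.p13, counted them per gene with HTSeq 0.6.0, and deposited FPKM values. Strandedness and annotation version are not given in the sources used here.

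Each library's FPKM was divided by its median-of-ratios factor and transformed as log2(FPKM + 0.1), so that changes of low genes are understated. Genes whose mean FPKM reached 0.5 were compared by limma 3.58.1 in R 4.3.3 with an intensity trend, no covariates, and Benjamini-Hochberg adjustment over all 13599 tested genes. Intervals are 95% and unadjusted. The procedure was tested on simulated data. Whole reads were recovered from the steps between FPKM values for 23740 of the 27922 genes above 0 and with annotated lengths for 3368 more, and 99.3% of these values lay within 0.02 of a whole read. With these reads limma voom called 1297 genes up and 1509 down, against 998 and 794. These reads carry no molecular identifiers and may count a molecule repeatedly. Positions, GC content, and transcript types come from GENCODE for GRCh38, in which 29063 of the identifiers matched.

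The genes, lists, and tests were chosen with earlier results of these data known. Full values are given for DE genes, the CLK and SRPK genes, the most abundant gene and the not DE gene with the largest log2 fold change of each other family, and the 3 DE genes with the smallest adjusted *P*-values of each other list. Other genes named were chosen after their values were seen. Alternatives were other scalings, pseudocounts, filters, limma settings, voom, a replicate block, and leaving out each replicate.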

Additional observations from a re-analysis of the deposited data

How the results depend on the processing

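The count of upregulated genes among the 41 (1 as reported) was 0 with unscaled FPKM, TPM, and quantile normalization. It was also 0 with no filter, no intensity trend, and the replicate block. It was 2 with voom, 3 with GC correction, and 2 with a filter at mean FPKM 1, where 39 of the 41 were tested. The downregulated genes (2 as reported) numbered 6 with unscaled FPKM, 11 with TPM, 6 with quantile normalization, 1 with no filter and with no intensity trend, 5 with voom, and 5 with GC correction. The share of all genes called was 13.2% as reported, 13.1% with unscaled FPKM, 20.4% with TPM, 13% with quantile normalization, 1.86% with no filter, 6.23% with no intensity trend, 17.5% with a filter at mean FPKM 1, 20.6% with voom, and 24.1% with GC correction. Leaving out each replicate gave 0 to 2 upregulated and 0 to 5 downregulated genes. Their median log2 fold change was -0.084 with unscaled FPKM, -0.21 with TPM, -0.12 with quantile normalization, and -0.056 to 0.00075 without each replicate. In the 5 other lists together, 8 genes were upregulated, and 5 with unscaled FPKM, 2 with TPM, 3 with no filter, 3 with no intensity trend, and 14 with GC correction. There, 7 genes were downregulated, and 21 with TPM, 11 with quantile normalization, 2 with no filter, 2 with no intensity trend, 12 with voom, and 15 with GC correction, and without each replicate 0 to 15 were upregulated and 0 to 12 downregulated. Of the 18 alternatives, *HNRNPA3* was called in 14 (adjusted *P*-values 0.00601 to 0.0988), *PTBP3* in 12 (0.0103 to 0.15), and *RBM39* in 7 (0.00564 to 0.386), each by limma or limma voom and each with its sign kept. The causes were not tested. GC correction and the recounts of the other lists were chosen after seeing the data.

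Same-numbered replicates did not pair: the correlations of their deviations were 0.0634, 0.0998, and -0.0534. With the replicate block, 0 genes of the 41 were upregulated and 2 downregulated, with 11 at an unadjusted *P*-value under 0.05 by limma, and 11.8% of all genes were called. *RBM39* had an adjusted *P*-value of 0.0638 in that fit. Genes with few reads, such as *CLK4*, *SRSF12*, and *PTBP2*, are limited by depth.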

Other observations

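Some abundant genes of the set differed more between replicates of a group than between the groups. In the control group the highest value was 1.52 times the lowest in *HNRNPL*, 1.47 times in *SRSF9*, and 1.35 times in *HNRNPAB*. In each of these control replicate 3 was the highest. *SRSF9* had scaled FPKM of 22.1, 20.0, and 29.4 without TEPP-46 and 34.9, 23.7, and 21.3 with it. *HNRNPAB* had 102, 95.8, and 129.5 without TEPP-46 and 129, 94.7, and 84.4 with it, so that case replicate 1 was the highest of its group in both genes. *HNRNPL* had 21.5, 24.9, and 32.7 without TEPP-46 and 27.9, 28.8, and 25.0 with it. The pseudogene *HNRNPCP2*, at 24.2, 22.4, and 32.2 without TEPP-46 and 44.2, 24.9, and 24.8 with it, was likewise highest in control replicate 3 and in case replicate 1 respectively. These genes were chosen after their values were seen.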
